A study of Homo sapiens with 9 samples.

Results

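MALAT1 and NEAT1 are long non-coding RNAs (lncRNAs) made from neighbouring genes on the long arm of chromosome 11, and their levels were followed through 9 RNA sequencing libraries of HCT116, a long-established cell line from a human colorectal tumour. The 2 members are 2 of the 15354 gene rows of the table. They were found by their Ensembl identifiers, ENSG00000251562 for MALAT1 and ENSG00000245532 for NEAT1, and were chosen on their measured differences between the groups, so those differences are given as a description with no test. All cells had been reverse transfected with a small interfering RNA (siRNA), at 25 nM in the sample annotation. The study's methods, which give another concentration for siRNAs, have these cells transfected for 36 h. The control group received a commercial non-targeting siRNA, and the groups labelled siRNA A and siRNA B each received 1 siRNA against SNHG5, a lncRNA that hosts small nucleolar RNAs, with 3 libraries per group and a single cell line. RNA was selected with oligo-dT, which holds on to runs of A.

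MALAT1 is an abundant nuclear RNA that gathers in nuclear speckles, bodies rich in splicing factors. NEAT1 is the scaffold of paraspeckles, neighbouring nuclear bodies built from RNA-binding proteins. NEAT1 is made as a short transcript with a poly(A) tail and a long transcript that starts at the same promoter, and the long one is needed to build the paraspeckle. MALAT1 and the long NEAT1 transcript are not polyadenylated in the usual way: RNase P cuts them just after an A-rich tract, and U-rich stretches upstream fold back on that tract as a triple helix that protects the end.

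On the GRCh37 build MALAT1 spans bases 65265111 to 65275544 of chromosome 11 on the plus strand, and NEAT1 spans 65190245 to 65213011 on the same strand. MALAT1 overlaps TALAM1 and ENSG00000270117, annotated lncRNAs of the opposite strand that were not analysed here, and without strand in the counting their reads cannot be told apart from those of MALAT1. NEAT1 overlaps no other annotated gene. The longest MALAT1 transcript, MALAT1-202, is 1 exon of 10434 bases, and the long NEAT1 transcript, NEAT1-202, is 1 exon of 22743 bases. The short NEAT1 transcripts, such as NEAT1-201 with 3441 bases, lie within the first part of the long one, so the gene's reads cannot be split between them.

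The ends of both RNAs are shown because they bear on how oligo-dT can hold these molecules. They were read from the plus strand of GRCh37, at chr11:65273511-65273616 for MALAT1 and chr11:65212927-65213011 for NEAT1, with capitals marking each run of at least 10 bases that both stretches hold.
MALAT1 end: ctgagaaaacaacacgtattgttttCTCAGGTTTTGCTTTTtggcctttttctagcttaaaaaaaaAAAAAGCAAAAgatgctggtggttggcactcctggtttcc
Long NEAT1 end: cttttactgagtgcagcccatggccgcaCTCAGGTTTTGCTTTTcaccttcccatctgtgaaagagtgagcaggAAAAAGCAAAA
The shared runs were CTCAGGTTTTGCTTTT, of 16 bases and rich in T, and AAAAAGCAAAA, of 11 bases, which in NEAT1 closes the annotated NEAT1-202 transcript. In MALAT1 the second shared run takes in the end of an unbroken run of 13 A, at bases 65273569 to 65273581, which lies 1963 bases before the annotated end of the gene and is the 1 run of at least 9 A that MALAT1 holds.

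NEAT1 holds 6 runs of at least 9 A. The longest has 22 A and lies 18069 bases from the gene's start, in the part that belongs to the long transcript alone. It is shown, at chr11:65208294-65208355, with the run in capitals, together with the end of the short transcripts NEAT1-208 and NEAT1-209, at chr11:65193925-65194004, where the polyadenylation signal AATAAA is in capitals.
NEAT1 longest A run: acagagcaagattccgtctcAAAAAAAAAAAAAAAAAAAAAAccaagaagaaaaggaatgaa
Short NEAT1 end: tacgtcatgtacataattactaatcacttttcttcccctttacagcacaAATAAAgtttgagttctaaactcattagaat
The AATAAA lies 5 bases before the annotated end. Of 414 windows of 80 bases laid end to end over both genes, 3.86% held AATAAA on the plus strand and 6.28% on the minus strand. The motif is given by its letters and no use of it was measured here.

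MALAT1 was among the rows with the most reads in all 9 libraries and stood higher in those labelled siRNA A and siRNA B than in control. Its level was 5924, 3011 and 4731 CPM (the deposited unit, reads scaled to one common library total) in control. The siRNA A libraries had 11857, 8727 and 11370.2 CPM. For siRNA B the values were 14747, 17474 and 18400.2 CPM. The 3 groups did not overlap in any pair, with control lowest and siRNA B highest, although the control libraries themselves were up to 1.97 times apart. In RNA from whole cultures, fewer cells of a kind and less RNA per cell cannot be told apart. In deposited CPM, 11.0% of all 13893 genes tested were higher in siRNA A than in control without overlap, 10.4% were higher in siRNA B than in control, and 33.2% were lower in siRNA A than in siRNA B.

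As a share of all reads, MALAT1 took 0.456% ± 0.146 (SD, n = 3) in control, 1.07% ± 0.168 in siRNA A and 1.69% ± 0.190 in siRNA B. Ranked by reads, and not per length, it was the 11th to 20th row in the control libraries, the 4th to 11th in siRNA A and the 3rd or 4th in siRNA B. The other 1876 rows annotated as lncRNAs, NEAT1 included, took 1.74% ± 0.0953, 1.70% ± 0.0637 and 1.76% ± 0.160 in sum. In siRNA B the single MALAT1 row thus held about as many reads as all those rows together. The counts behind each value, 58160 to 428311 reads, left a counting error of 0.153% to 0.415%, far under the spread between libraries. The 95% Wilson interval of the share in the lowest library, control 2, ran from 0.299% to 0.304%.

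In deposited CPM, NEAT1 stood above control in the libraries labelled siRNA B, while those labelled siRNA A overlapped control. Control libraries had 107, 93.3 and 93.4 CPM of NEAT1. The siRNA A libraries had 86.5, 94.4 and 87.3 CPM. The siRNA B libraries had 206, 164 and 194 CPM. The siRNA B libraries lay above all others. The share of all reads was 0.00979% ± 0.000794 in control, 0.00894% ± 0.000434 in siRNA A and 0.0188% ± 0.00215 in siRNA B (SD, n = 3 each). Its 1469 to 4521 reads per library left a counting error of 1.49% to 2.61%.

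**Figure D1:**
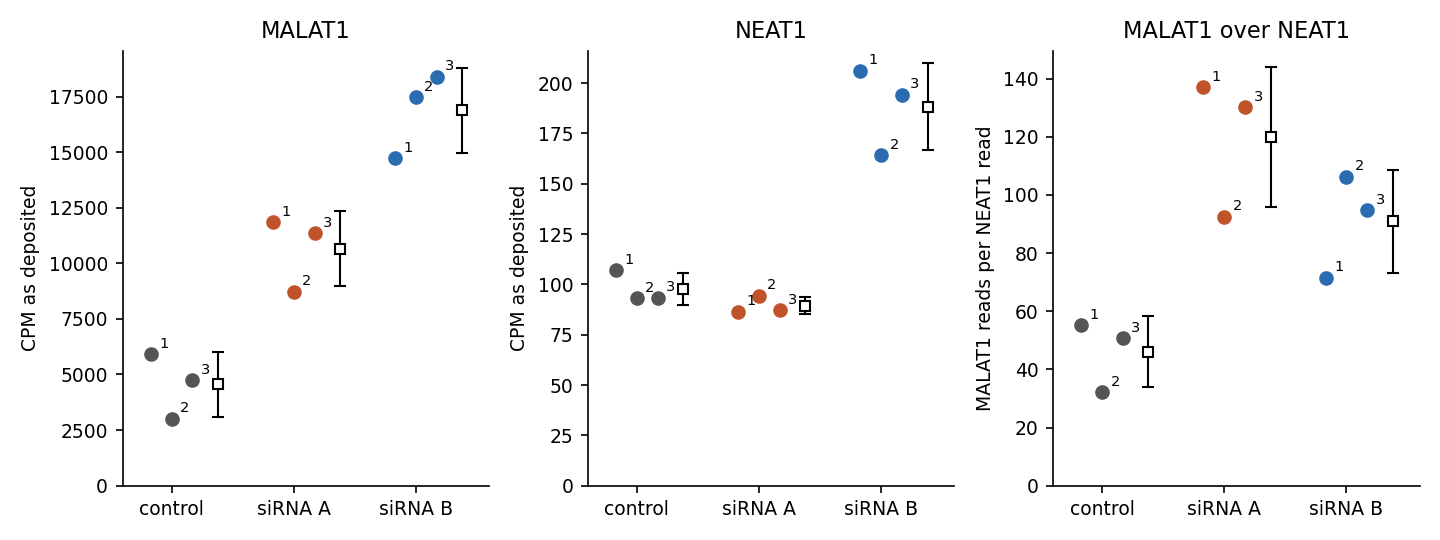
Levels of MALAT1 and NEAT1 in CPM as deposited, and MALAT1 reads per NEAT1 read, in each of the 9 libraries (coloured points, numbered by replicate), with the group mean and SD (white squares and bars, n = 3). MALAT1 separates all 3 groups, NEAT1 separates siRNA B from the others, and the ratio is lowest in control.

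MALAT1 and NEAT1 did not differ between groups in one proportion. There were 55.3, 32.3 and 50.7 MALAT1 reads per NEAT1 read in the control libraries. In siRNA A there were 137, 92.5 and 130.2, and in siRNA B 71.5, 106 and 94.7. The ratio, which needs no scaling between libraries, was lowest in control without overlap, while siRNA A and siRNA B overlapped. Per kilobase of the longest transcript of each, MALAT1-202 had 70.4 to 299 times the reads of NEAT1-202 over the 9 libraries. With the reads of NEAT1 set against the short NEAT1-201 instead, the factor was 10.6 to 45.2.

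Scaling between libraries changed the picture for NEAT1 in siRNA A. After TMM scaling (trimmed mean of M values, which lines libraries up on the bulk of genes), MALAT1 averaged 4007 ± 1363, 11988 ± 1546 and 17152 ± 2522 CPM in control, siRNA A and siRNA B. That is a ratio of means of 2.99 for siRNA A and 4.28 for siRNA B against control, where the deposited CPM give 2.34 and 3.70. NEAT1 averaged 85.7 ± 8.02, 101 ± 8.64 and 190.3 ± 14.6 TMM-scaled CPM. Against control its ratio of means was 2.22 for siRNA B, and 1.92 in deposited CPM. For siRNA A the ratio was 1.18 on the TMM scale, where the libraries did not overlap (as for 27.6% of all genes in that direction), and 0.913 in deposited CPM, where they did, so no direction is given for it. Over all tested genes the median log2 difference from control was, with TMM, −0.02 (siRNA A) and 0.0043 (siRNA B), and without it −0.34 and −0.18.

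On the log2 scale of TMM-scaled CPM with 1 added, MALAT1 exceeded control by 1.64 in siRNA A and by 2.15 in siRNA B, while siRNA A lay 0.51 below siRNA B (coded as −0.51). Among 13893 genes ordered from the most positive difference, MALAT1 ranked 51 for siRNA A and 3 for siRNA B. NEAT1 differed from control by 0.24 and 1.14, ranking 4447 and 90, and siRNA A minus siRNA B was −0.91. By library totals alone the differences from control were 1.27 and 1.94 for MALAT1 and −0.13 and 0.93 for NEAT1. Leaving out each library in turn kept MALAT1 between 1.33 and 1.86 for siRNA A and between 1.85 and 2.37 for siRNA B, with the lowest value of each without control replicate 2. Both members took 0.310% to 1.86% of a library together, so taking them out of the totals would move every other gene by 0.0045 to 0.0271 on the log2 scale.

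**Figure D2:**
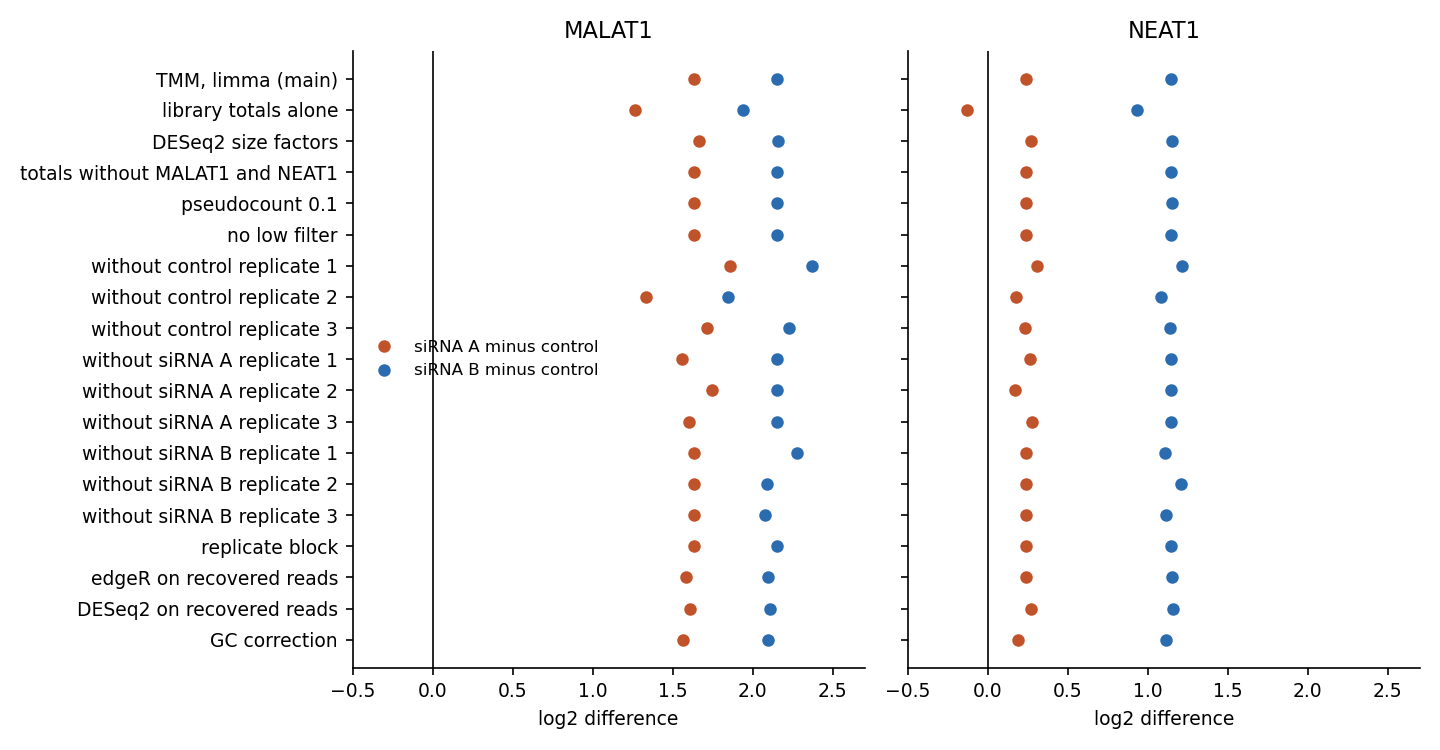
Log2 differences from control (x axis) of MALAT1 and NEAT1 for siRNA A and siRNA B under each way of scaling, filtering, testing or leaving out a library (y axis, 1 row each). MALAT1 stays above 1.2 throughout, and NEAT1 in siRNA A falls below 0 with library totals alone.

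MALAT1 varied more between libraries of the same group than most genes. Its SD within groups was 0.36 on the log2 scale, above that of 94.8% of tested genes, whose median was 0.17. Among the 63 genes with a mean of at least 1000 CPM it had the 5th largest SD. NEAT1 had an SD of 0.12, with 23.3% of tested genes below it. Replicate 2 was the lowest MALAT1 library of control and of siRNA A but not of siRNA B, where replicate 1 was lowest.

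The siRNA labels were checked on SNHG5 itself. Its CPM were 35.6, 26.3 and 28.6 (control), 63.9, 49.98 and 61.5 (siRNA A) and 47.8, 47.7 and 45.2 (siRNA B). The targeted RNA was therefore higher, not lower, in the libraries labelled as knock-downs, and every direction given here is between libraries so labelled. Of 8 colon epithelial markers with a row, CDH17 was at 0 to 0.104 CPM and the other 7 were detected in all libraries, with EPCAM at 94.6 to 214 CPM. Summed, the 8 took 0.210% to 0.218% of reads in control, 0.280% to 0.344% in siRNA A and 0.239% to 0.245% in siRNA B. Of the markers of other cells, COL1A1, a collagen of fibroblasts, was the 1 with a row, and the others were not analysed here. It stood at 18.3 to 19.5 CPM in control, 9.44 to 12.3 CPM in siRNA A and 8.55 to 9.40 CPM in siRNA B, lower in both siRNA groups without overlap, as were 52.1% of all genes tested in siRNA A and 38.0% in siRNA B. The part of these markers in the levels of MALAT1 and NEAT1 was not tested.

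Other RNAs bear on how the libraries were made. RNAs that mostly lack a poly(A) tail, such as replication-dependent histone mRNAs, are poorly held by oligo-dT. Their 10 rows took 0.00283% to 0.0248% of reads in control, 0.00373% to 0.0298% in siRNA A and 0.00308% to 0.0312% in siRNA B, ranges that overlap. The 7 tested were all histone genes, of which 2 rose in siRNA A and 4 in siRNA B, where 23.9% and 15.6% of all genes rose. In limma's fit H1-2 rose in siRNA A by 0.84 (SE 0.27, adjusted p = 0.021) and H2BC12 by 0.76 (SE 0.18, adjusted p = 0.0037), calls lost by library totals alone. Without control replicate 2, control replicate 3, siRNA A replicate 1 or siRNA A replicate 2, in turn, that of H1-2 was lost too, leaving 1. In siRNA B these genes rose by 0.77 and 0.68, the H1-2 call being lost by totals alone and in 5 of the 9 fits that leave out 1 library, and H2AC6 and H2BC5 by 0.98 and 0.95. Without siRNA B replicate 1 the calls there came to 2. The 13 mitochondrially encoded mRNAs took 9.67% to 12.6%, 11.2% to 14.2% and 11.4% to 17.0% of reads in control, siRNA A and siRNA B. The siRNA A and siRNA B ranges lay partly above control. Of the 13, 6 rose in siRNA A (46.2%, against 23.9% of all genes) and 2 in siRNA B (15.4%, against 15.6%). Library totals alone gave 1 and 2. Without control replicate 1, control replicate 2 or siRNA A replicate 2, in turn, 1 was called in siRNA A, and without siRNA A replicate 1 it was 3. In siRNA B 1 was called without control replicate 1 or siRNA B replicate 2, and 0 without control replicate 2. The part of both groups of RNAs in the levels of MALAT1 and NEAT1 was not tested.

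Genes whose profile over the 9 libraries was most like that of each member were sought by the root mean square difference between log2 levels, each centred on its own mean. For MALAT1 the nearest was CYP4F3, a fatty acid hydroxylase gene, at 0.22, followed by PNRC1, BEST1, FTH1 and SEMA6A at 0.34 to 0.36. CYP4F3 stood at 1.81 to 2.49 CPM in control, a low level at which the 1 added before the log2 shrinks differences. FTH1 encodes the heavy chain of ferritin, the iron store. BEST1 overlaps FTH1 on the opposite strand, so without strand in the counting the reads of these 2 genes may be shared. For NEAT1 the nearest were SLC25A45 at 0.13 and COLQ, INPP5D, LGALS3 and VGF at 0.14 to 0.16. INPP5D stood at 0.482 to 0.726 CPM in control, 0.285 to 0.707 CPM in siRNA A and 2.02 to 2.36 CPM in siRNA B. It passed the filter of 1 CPM in 3 libraries through siRNA B alone, so its likeness to NEAT1 carries no weight. COLQ, at 1.45 to 4.34 CPM over all libraries, was low as well. SLC25A45 belongs to the mitochondrial carrier family and lies in the same stretch of chromosome 11, with its start 47.6 kb before that of NEAT1. NEAT1 itself ranked 319 in likeness to MALAT1, and MALAT1 ranked 9800 in likeness to NEAT1. The 9 libraries share groups and depth, so these distances are a description.

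**Figure D3:**
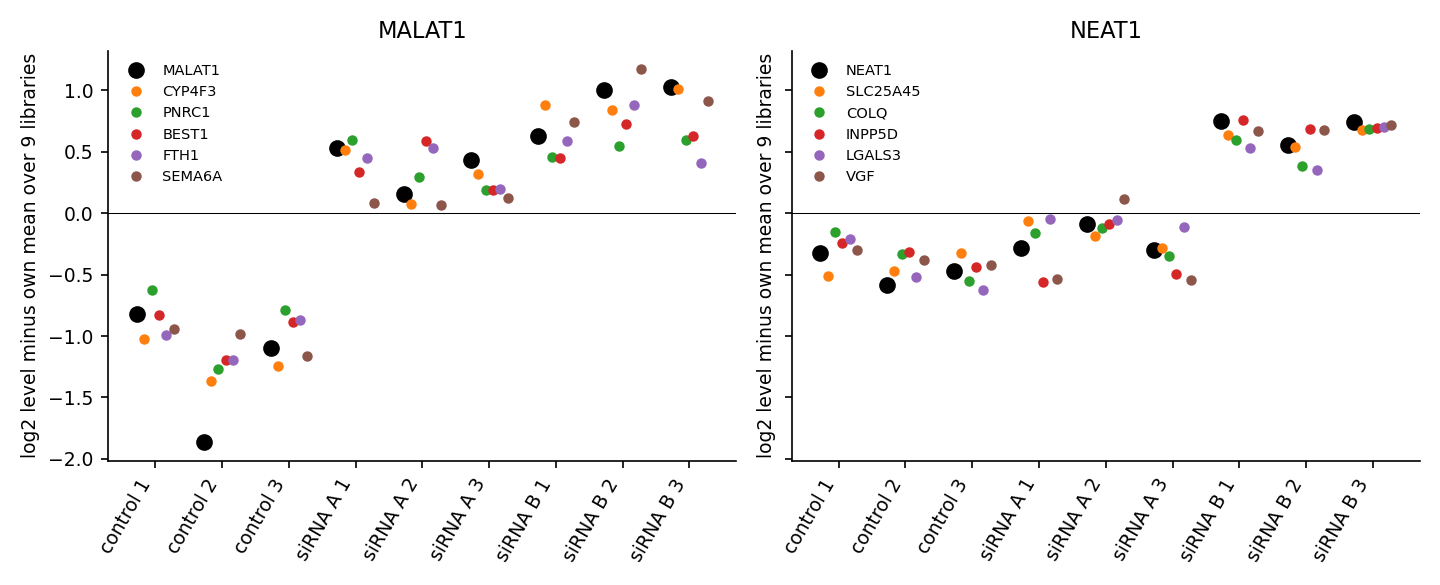
Log2 level minus the gene's own mean over the 9 libraries (y axis) for MALAT1 and NEAT1 (black) and the 5 genes nearest to each (colours), library by library (x axis). MALAT1 and the 5 genes nearest to it lie below 0 in control and above 0 in both siRNA groups, while NEAT1 and its 5 lie above 0 in siRNA B and, with 1 exception (VGF in siRNA A replicate 2), below 0 elsewhere.

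Genes around the members were taken from the annotation by position alone. Within 200 kb of either gene, 18 of 42 annotated genes had a row, and all 18 were tested. Against control, 3 rose and 7 fell in siRNA A (median log2 difference −0.14), and 3 rose and 4 fell in siRNA B (median 0.09). Among all tested genes 23.9% rose and 27.6% fell in siRNA A, and 15.6% rose and 18.3% fell in siRNA B. With library totals alone the neighbours split 1 to 11 in siRNA A and 3 to 5 in siRNA B. With GC content corrected, an alternative chosen after seeing the data, siRNA A had 5 higher and 5 lower.

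No common direction ran along the region. Before NEAT1, FRMD8, which encodes a binding partner of iRhom proteins, differed by −0.31 in siRNA A (SE 0.12, adjusted p = 0.040 by limma) and by 0.31 in siRNA B (adjusted p = 0.057), and the siRNA A call was lost in 6 of the 9 fits that leave out 1 library. SLC25A45 was low, at 2.18, 2.38 and 2.56 CPM in control and 2.66, 2.25 and 2.21 CPM in siRNA A. Its siRNA B libraries, at 5.65, 4.77 and 5.54 CPM, lay above all others. It was the tested gene with the profile nearest to that of NEAT1, so its likeness to NEAT1 here, test included, is no separate result. It rose by 1.05 in siRNA B (SE 0.13, limma, adjusted p = 0.00012), and its difference for siRNA A was 0.26 (adjusted p = 0.11). Between the members lies FAUP4, a pseudogene of FAU whose reads are uncertain because FAU is a near copy, which rose by 0.70 and 1.08 in siRNA A and siRNA B from a level of 0.868 to 1.86 CPM in control.

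On the far side of MALAT1, EHBP1L1 fell most, by 2.61 in siRNA A and by 1.61 in siRNA B (SE 0.12 each). It stood at 75.4 to 101 CPM in control, 9.36 to 11.2 CPM in siRNA A and 24.3 to 24.6 CPM in siRNA B, while MALAT1, whose start lies 78.4 kb away, stood highest in siRNA B. AP001362.1 fell with it and lies within the span of EHBP1L1, so the reads of these 2 may be shared.

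**Figure D4:**
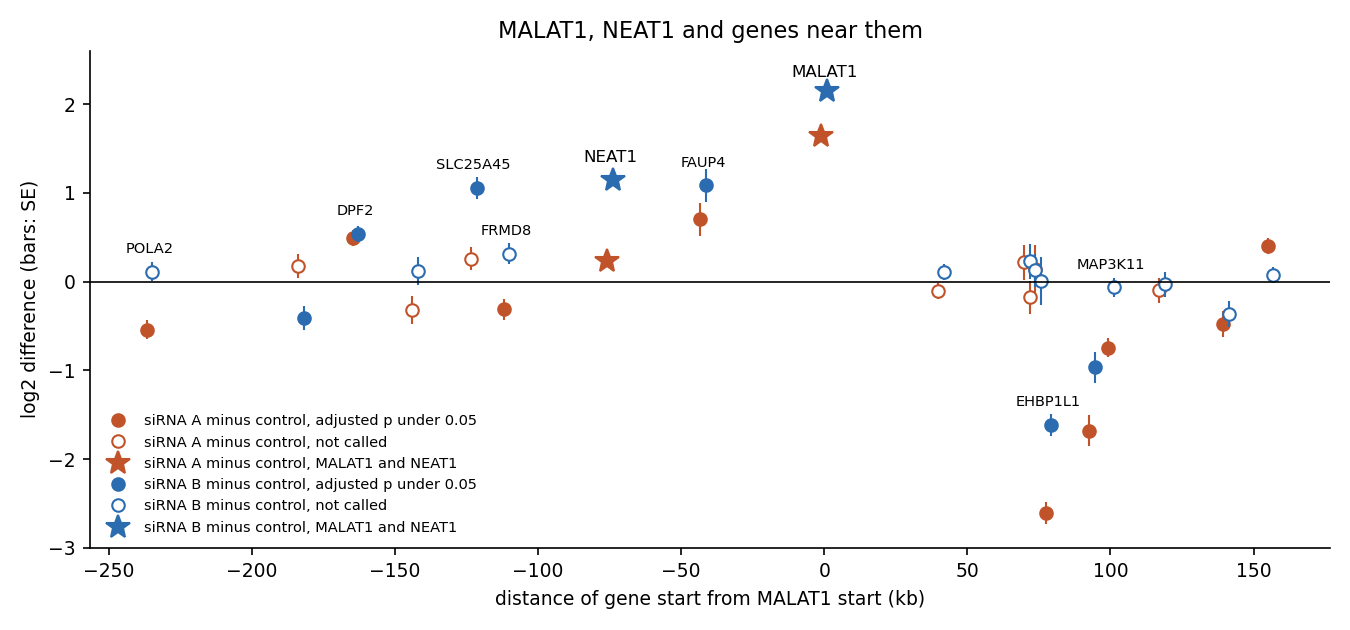
Log2 difference from control with its SE (y axis) of tested genes near the members and of the members themselves (stars), by distance of each gene's start from that of MALAT1 in kb (x axis). Filled points passed the adjusted p of 0.05; EHBP1L1, after MALAT1, fell in both siRNAs, and SLC25A45, before NEAT1, rose in siRNA B.

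Proteins of the bodies that the members belong to were described by lists. In nuclear speckles, 23 of 33 tested genes (69.7%) rose and 1 fell in siRNA A, with a median log2 difference of 0.64, where 23.9% of all genes rose. In siRNA B 14 rose (42.4%, against 15.6% of all) and 1 fell, with a median of 0.32. The split by library totals alone was 14 to 5 in siRNA A and 6 to 1 in siRNA B. CLK1, a kinase of SR splicing factors, stood at 43.7, 39.6 and 44.3 CPM in control, 75.8, 102 and 84.3 CPM in siRNA A and 87.4, 116 and 76.4 CPM in siRNA B, both groups above control. It rose by 1.38 and 1.30 (SE 0.17, limma, adjusted p = 7.62e-05 and 0.00022). PRPF4B, a kinase of spliceosome proteins, rose by 1.44 in siRNA A (SE 0.37, limma, adjusted p = 0.0070). In siRNA B its difference was 0.37 (adjusted p = 0.48). It varied widely within groups, at 330, 151 and 165 CPM in control and 552, 255 and 547 CPM in siRNA A. These deposited values overlap. DYRK1A, a kinase found in speckles, rose by 1.03 and 0.96 (SE 0.12, limma, adjusted p = 3.89e-05 and 0.00012). U2AF2, which binds the polypyrimidine tract ahead of the 3′ splice site, was the gene that fell in both, by 0.49 and by 0.90.

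Between the siRNAs the speckle list leaned to siRNA A, with 13 genes higher there than in siRNA B and 2 lower, against 17.6% higher and 19.5% lower among all genes. Totals alone gave 7 to 4, and without siRNA B replicate 1 the calls came to 9 in all. MALAT1 lay the other way, higher in siRNA B than in siRNA A. The list's genes and MALAT1 were measured in the same libraries, and whether the one bears on the other was not tested.

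Of 31 paraspeckle protein genes tested, 12 rose (38.7%) and 2 fell in siRNA A, and 9 rose (29.0%) and 4 fell in siRNA B, with a median log2 difference of 0.19 in each. Of all genes, 23.9% rose and 27.6% fell in siRNA A and 15.6% rose and 18.3% fell in siRNA B. The direction of this list hung on the scaling. On library totals alone 4 rose and 8 fell in siRNA A and 3 rose and 7 fell in siRNA B. Without control replicate 2 the calls in siRNA B came to 8 in place of 13. Between the siRNAs 11 were higher and 4 lower in siRNA A (17.6% and 19.5% of all genes), and by totals alone 3 and 6. Those calls came to 6 without siRNA A replicate 3 and to 9 without siRNA B replicate 1.

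Among the 9 core proteins, NONO, which pairs with SFPQ on NEAT1, stood at 341, 365 and 382 CPM in control, 458, 489 and 445 CPM in siRNA A and 398, 401 and 357 CPM in siRNA B. It rose by 0.72 in siRNA A (SE 0.11, adjusted p = 0.00023 by limma), and its difference in siRNA B was 0.30 (adjusted p = 0.051). SFPQ differed by 0.19 and 0.10 (adjusted p = 0.31 and 0.65). PSPC1, the third of this protein family, was called higher in siRNA A at 0.32 (SE 0.11, adjusted p = 0.031), a call that turned to −0.037 by library totals alone and was lost in 4 of the 9 fits that leave out 1 library.

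RBM14, needed to assemble paraspeckles, moved apart between the siRNAs. It stood at 117, 115 and 128 CPM in control, 145, 131 and 141 CPM in siRNA A and 92.1, 65.5 and 85.7 CPM in siRNA B, so that the 3 groups did not overlap and siRNA B, where NEAT1 was highest, was lowest. It differed by 0.58 and −0.36 from control, and siRNA A lay above siRNA B by 0.94 (SE 0.12, limma, adjusted p = 0.00013). The siRNA A difference by totals alone was 0.21 and not called. Without control replicate 1, control replicate 3 or siRNA B replicate 2, in turn, the fall in siRNA B was not called.

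SMARCA4, the BRG1 ATPase of SWI/SNF chromatin remodelling complexes that also sits in paraspeckles, showed the largest fall of the list in both siRNAs. It stood at 212, 217 and 218 CPM in control, 67.4, 60.7 and 65.9 CPM in siRNA A and 60.5, 56.1 and 61.6 CPM in siRNA B. Both groups lay far below control, with log2 differences of −1.36 and −1.63 (SE 0.087, limma, adjusted p = 1.63e-06 and 5.78e-07). HNRNPK, which favours the long NEAT1 transcript, rose by 0.59 in siRNA A (SE 0.10, adjusted p = 0.00050) and by 0.30 in siRNA B (adjusted p = 0.039), neither of which was called by library totals alone, and the siRNA B call was lost in 5 of the 9 fits that leave out 1 library. DAZAP1 fell by 0.36 in siRNA A (adjusted p = 0.0049) and by 0.27 in siRNA B (adjusted p = 0.032, lost in 5 of the 9 fits that leave out 1 library). HNRNPH3 was called in neither.

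Genes that make RNA ends or clear nuclear RNA formed a list of 31, among them RNase P, which cuts the ends of MALAT1 and long NEAT1, and the exosome, which degrades nuclear RNA. In siRNA A 12 rose (38.7%, against 23.9% of all genes) and 3 fell (9.68%, against 27.6%). In siRNA B 3 rose (9.68%, against 15.6%) and 5 fell (16.1%, against 18.3%). By library totals alone these were 4 and 10, and 2 and 9. The RNase P subunit genes did not share a direction in siRNA A. RPP40 rose by 0.92 (SE 0.14, limma, adjusted p = 0.00026) and POP7, RPP14, RPP30 and RPP38 by 0.44 to 0.64, while RPP25L fell by 1.19 (SE 0.21, adjusted p = 0.00069). By library totals alone POP7, RPP14, RPP30 and RPP38 differed by 0.13, 0.41, 0.27 and 0.087. In siRNA B POP4, POP5 and RPP25L fell, by 0.51, 0.36 and 0.69. RPP21, a further subunit gene at 3.05 to 5.69 CPM over all libraries, rose by 0.57 in siRNA A and by 0.55 in siRNA B (adjusted p = 0.024 and 0.041), calls lost by totals alone and in 3 and 5 of the 9 fits that leave out 1 library.

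ZCCHC8, part of the nuclear exosome targeting complex, rose by 0.74 and 0.63 in siRNA A and siRNA B (SE 0.097 each). The exosome's own subunit genes moved both ways. EXOSC5 fell in siRNA A by 0.80 (adjusted p = 0.00032), with a difference of 0.32 in siRNA B (adjusted p = 0.069). EXOSC3 fell by 0.58 in siRNA A and by 1.20 in siRNA B (adjusted p = 0.0074 and 0.00016), and EXOSC4 fell by 0.94 in siRNA B (adjusted p = 0.00080). EXOSC6, EXOSC9 and the catalytic subunit gene DIS3 rose in siRNA A, by 0.68, 0.40 and 0.44 (adjusted p = 0.00099, 0.020 and 0.0044). By library totals alone these 3 differed by 0.33, 0.028 and 0.072. METTL16, an RNA methyltransferase known to bind the MALAT1 triple helix, differed by 0.27 in siRNA A and −0.10 in siRNA B (adjusted p = 0.060 and 0.51).

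Other lncRNAs moved in both directions. They were called less often than all genes, but no genes of matched level were compared. The 1 added before the log2 shrinks differences of low genes. Of 1459 annotated lncRNAs tested, besides MALAT1, NEAT1 and SNHG5, 256 rose in siRNA A (17.5%, against 23.9% of all genes) and 316 fell (21.7%, against 27.6%). The median there was −0.02 and the highest 2.14. In siRNA B 143 rose (9.80%, against 15.6%) and 150 fell (10.3%, against 18.3%), with a median of 0.02 and a highest value of 1.36. On library totals alone these were 119 and 538, and 82 and 269. Among 9 other nuclear lncRNAs tested, 2 rose (22.2%, against 23.9% of all genes) and 1 fell in siRNA A, with 6 calls in all in the fit with a replicate block. TUG1 rose by 0.82 in siRNA A (SE 0.14, limma, adjusted p = 0.00057). LINC-PINT, a p53-responsive lncRNA at up to 4.31 CPM outside siRNA B, rose by 0.53 in siRNA A, though not by totals alone, and by 0.80 in siRNA B, where it was the 1 call, with 2 calls without siRNA A replicate 1 or siRNA A replicate 2. FIRRE fell by 0.44 in siRNA A (adjusted p = 0.032), a call lost in 4 of the 9 fits that leave out 1 library. Among 11 cytoplasmic lncRNAs, 8 rose (72.7%, against 23.9% of all genes) and 1 fell in siRNA A and 6 rose in siRNA B (54.5%, against 15.6%), with a split by library totals alone of 6 to 1 and 4 to 1. SNHG1, a snoRNA host, rose by 1.39 and 1.03 (SE 0.10), and ZFAS1, another, by 1.16 and 1.29 (SE 0.20). The snoRNA hosts GAS5, SNHG6 and SNHG12 were called higher in both siRNAs as well. NORAD rose by 0.84 in siRNA A, where OIP5-AS1 and CYTOR were not called and H19 fell by 0.52. Whether location in the cell or hosting of snoRNAs bears on these calls was not tested.

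Both p53 and the hypoxia-inducible factors are known to raise NEAT1 transcription, and lists of their targets were set beside it. Of 12 p53 targets, 3 rose and 4 fell in siRNA A (median −0.14), where 23.9% of all genes rose and 27.6% fell, and 9 rose and 1 fell in siRNA B (median 0.56), where 15.6% of all genes rose. By library totals alone these were 2 and 7, and 5 and 1. Between the siRNAs 9 of the 12 were lower in siRNA A (75.0%, against 19.5% of all genes) and 2 were higher, with a median difference of −0.80, beside −0.91 for NEAT1 and −0.51 for MALAT1. CDKN1A, which encodes the cell cycle inhibitor p21, stood at 220.5, 219 and 204 CPM in control, 314, 347 and 283 CPM in siRNA A and 641, 609 and 586 CPM in siRNA B. It rose by 0.91 and 1.72 (SE 0.11, limma, adjusted p = 5.73e-05 and 1.71e-06), with no overlap between the 3 groups.

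BTG2, an antiproliferative p53 target, stood at 39.7 to 46.9 CPM in control and fell to 17.4 to 20.01 CPM in siRNA A, by 0.77 on the log2 scale. In siRNA B it stood at 60.8 to 72.4 CPM and rose by 0.86 (SE 0.12 each, limma, adjusted p = 0.00038 each). GDF15, a stress-induced cytokine, rose by 0.85 in siRNA A, a call lost by totals alone, and by 2.08 in siRNA B (SE 0.23, adjusted p = 0.0083 and 6.07e-05). TP53I3, a p53-induced oxidoreductase, fell by 0.72 in siRNA A and rose by 0.94 in siRNA B (SE 0.14, adjusted p = 0.0015 and 0.00054). ZMAT3 and TP53INP1 went the other way between the siRNAs. ZMAT3 rose by 0.99 in siRNA A and by 0.49 in siRNA B, with siRNA A above siRNA B by 0.50 (limma, adjusted p = 0.0081). TP53INP1 fell by 0.41 in siRNA B (adjusted p = 0.043). It was higher in siRNA A than in siRNA B by 0.45 (adjusted p = 0.029), a call lost by totals alone. The siRNA B libraries were thus the highest for NEAT1, CDKN1A, BTG2 and GDF15, but not for ZMAT3 and TP53INP1. Whether these genes bear on NEAT1 was not tested.

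Of 11 hypoxia targets, 9 rose in siRNA A (81.8%, against 23.9% of all genes) and 6 in siRNA B (54.5%, against 15.6%), and by library totals alone 5 and 4. P4HA1, a collagen prolyl hydroxylase subunit, rose by 1.44 and 1.09 (SE 0.19), and ADM, the peptide adrenomedullin, by 1.43 and 1.01 (SE 0.20). Between the siRNAs 1 of the 11 was called, higher in siRNA A, while by library totals alone 1 was called and was lower there. The first count ran from 0 to 2 with each library left out, being 0 without siRNA A replicate 2 or siRNA B replicate 3 and 2 without siRNA A replicate 3 or siRNA B replicate 2.

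**Figure D5:**
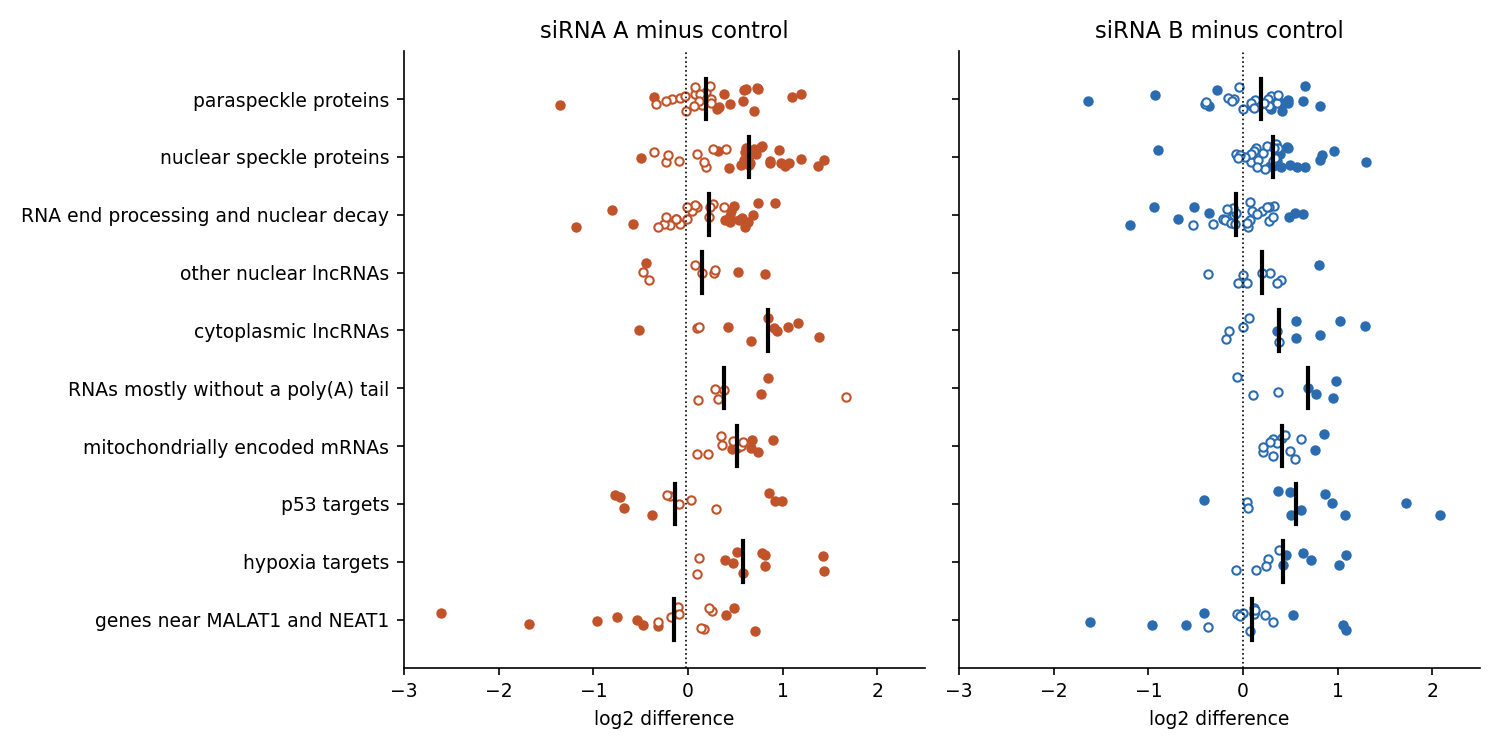
Log2 differences from control (x axis) of every tested gene of each list (y axis), for siRNA A and siRNA B, with the list's median (black bar) and the median of all tested genes (dotted line). Filled points passed the adjusted p of 0.05; speckle genes sit mostly above 0 in siRNA A (median 0.64), and p53 targets do so in siRNA B (median 0.56).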

How the data were processed

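RNA of 9 libraries was read as single ends of 50 bases, with 3 libraries for each of control, siRNA A and siRNA B, described by the authors as biological replicates. The authors deposited 1 table of CPM values, the reads of a gene scaled by the library total. The submitters' processing notes name TopHat2, HTSeq and the builds GRCh37 and hg19; the use of strand in the counting was not given in the sources used here. Of the deposited CPM values, 100% were whole multiples of 1 read (tolerance 0.01), so reads were recovered, from library totals of 15566530 to 23277549 reads. All 9 columns were matched to a library by name, with 0 per-sample columns left unmatched. Intervals and errors given for reads cover counting error only, since reads carried no molecular identifiers.

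CPM was scaled by TMM factors and tested as log2(CPM + 1) with limma (trend on the mean, 1 mean per group, all 9 libraries) over the 13893 genes that reached 1 CPM in 3 or more libraries, with Benjamini-Hochberg adjustment per comparison and a threshold of 0.05. Fold changes on this scale understate changes of low genes. limma called 7145 genes for siRNA A and 4719 for siRNA B against control, and 5155 between the siRNAs. The edgeR quasi-likelihood test on the recovered reads called 7160, 4780 and 5105. Both comparisons against control use the same control libraries. Libraries of a group were compared and none agreed within sampling noise (chi-square per degree of freedom at least 13.0).

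Deviations from the group means across genes were correlated between same-numbered libraries. The correlations were 0.65, 0.41 and 0.13 for control and siRNA A and 0.17, 0.44 and −0.39 for control and siRNA B. For siRNA A and siRNA B they were 0.20, 0.44 and 0.019. Libraries of different numbers were not compared, so these values cannot tell whether the numbers pair the samples. The labels do not state a pairing, and the main fit took none into account. The members, lists and tests were chosen with earlier results of these data known, and list counts are descriptions. Named genes were the members, SNHG5, the 9 core paraspeckle proteins, METTL16, the 2 called genes per list with the largest rise and the 2 with the largest fall against control, the tested genes next to each member, and the 5 genes most like each member. Of these, some are given by count, and some are not reported here. Identifiers were matched without version to GENCODE on GRCh37 (14871 of 15354), which also gave coordinates and sequence. Alternatives were library totals alone, DESeq2 size factors, totals without the members, a pseudocount of 0.1, no filter on low values, each library left out, a replicate block, edgeR, DESeq2 and, added after seeing the data, a GC correction. Of the steps, the TMM scaling and the limma fit were tested on simulated data. The software was DESeq2 1.42.0, edgeR 4.0.16 and limma 3.58.1 in R 4.3.3, and matplotlib 3.10.9, scipy 1.17.1, pandas 2.3.3 and numpy 2.4.6 in Python 3.11.15.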

Additional observations from a re-analysis of the deposited data

How the results depend on the processing

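With library totals alone, the log2 difference from control was 1.27 for MALAT1 in siRNA A, −0.13 for NEAT1 in siRNA A, which turned its sign, and 0.93 for NEAT1 in siRNA B, and siRNA A minus siRNA B was −1.06 for NEAT1. PSPC1 in siRNA A also turned, to −0.037. That setting shifts all genes, as the medians of −0.34 and −0.18 show. It gave 9 calls among paraspeckle genes between the siRNAs and 7 among speckle genes in siRNA B. Among other nuclear lncRNAs it gave 2 in siRNA B and 2 between the siRNAs. Of the tested histone genes, 0 were called in siRNA A (limma, 1 at an unadjusted p under 0.05, 2 by edgeR and 2 by DESeq2). Calls came to 1 among mitochondrial mRNAs in siRNA A, 6 among p53 targets in siRNA B and 5 among hypoxia targets in siRNA A. Over all genes the split was 1257 higher and 6532 lower in siRNA A and 958 and 4127 in siRNA B. With totals taken without mitochondrial genes, MALAT1 took 1.95% in siRNA B and NEAT1 0.0110%, 0.0102% and 0.0217% in control, siRNA A and siRNA B.

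The fit with a replicate block gave 6, 2 and 2 calls among other nuclear lncRNAs (siRNA A, siRNA B and between them) and 2 among hypoxia targets between the siRNAs. It called 8093 and 5791 genes in all, left the members' log2 differences at 1.64 and 2.15 (MALAT1) and 0.24 and 1.14 (NEAT1), and moved no other list count by over 1.5 times. Without the filter on low values the mitochondrial calls were 1 in siRNA A and 0 in siRNA B (1 at an unadjusted p under 0.05), and for siRNA B they were 4 by edgeR and 5 by DESeq2. The GC correction gave 2 calls among other nuclear lncRNAs in siRNA B. The cause of these changes was not tested.

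With each library left out in turn, calls in siRNA A, in siRNA B and between the siRNAs ran as follows. Paraspeckle genes gave 11 to 14, 8 to 15 and 6 to 16, and speckle genes 22 to 26, 11 to 17 and 9 to 15. Other nuclear lncRNAs gave 2 to 4, 1 to 2 and 0 to 1, and cytoplasmic lncRNAs 8 to 9, 5 to 7 and 2 to 5. The tested histone genes gave 1 to 3, 2 to 4 and 1 to 2, and mitochondrial mRNAs 1 to 8, 0 to 2 and 0 to 0. Hypoxia targets gave 7 to 9, 4 to 5 and 0 to 2. In all 9 such fits, which share the TMM scaling, MALAT1 kept its direction in both siRNAs, and so did NEAT1 in siRNA B, at 1.08 to 1.21. NEAT1 in siRNA A ran from 0.17 to 0.31. These fits cannot show the change of sign under library totals alone, so no direction is given for it.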

Other observations

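Levels across genes leaned with base composition. Split into 5 equal bins by the GC content of the transcript, the bin with the lowest GC had a median log2 difference from control of 0.16 in siRNA A and 0.14 in siRNA B, and the bin with the highest GC had −0.24 and −0.15. MALAT1 has 42.0% GC and NEAT1 44.1%, both in bin 2 from the lowest, whose medians were 0.07 and 0.05. EHBP1L1, with 64.0% GC, lies in the highest bin, and SLC25A45, with 59.5%, does so too although it rose in siRNA B.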
